A study of Rattus norvegicus with 6 samples.

Results

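The genes described are the sodium, potassium and chloride channels of the rat diaphragm, taken as every probe set that the platform annotation gives to exactly 1 gene whose symbol begins with Kcn, Clcn or Clic, or with Scn followed by a digit. This gave 135 probe sets of 96 genes out of 15923 probe sets on the array. They were 108 probe sets for potassium channels, 12 for sodium channels, 9 for ClC chloride channels and exchangers and 6 for chloride intracellular channel proteins. Expression was compared between the left costal hemidiaphragm of 3 diabetic and 3 normal male Wistar rats, with 1 Affymetrix rat genome array per rat. Diabetic rats had received 60 mg/kg of streptozotocin, which destroys insulin-secreting beta cells, by injection into the peritoneum at 8 weeks of age, and normal rats had received citrate buffer alone. Muscle was taken 4 weeks later, at 12 weeks of age, after an overnight fast in both groups, and the diabetic rats were not treated with insulin. A direct action of streptozotocin on muscle cannot be told apart from that of diabetes in this design.

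Voltage-gated sodium channels open on depolarization and carry the upstroke of the muscle action potential, and potassium channels return the membrane to rest. In skeletal muscle the ClC-1 channel carries most of the resting chloride conductance and steadies the membrane between action potentials. Each sodium channel has a pore-forming alpha subunit, and beta subunits that set its gating and its place in the membrane. Potassium channels fall into voltage-gated channels, inward rectifiers, leak channels with tandem pore domains, and channels opened by calcium. Not every gene taken by the symbol rule is voltage-gated. Inward rectifiers and leak channels have no voltage sensor of that kind, Scn7a encodes an atypical sodium channel that responds to extracellular sodium, several ClC proteins are proton exchangers of endosomes and lysosomes, and Clic proteins exist in soluble as well as membrane forms. The comparison addresses which of these channel RNAs differ between diabetic and normal diaphragm.

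Few of the channel probe sets gave a signal above background. Background was set at the 40th percentile of the mean signal of all non-control probe sets, a level of 105.8 on the linear MAS 5.0 scale. Of the 135 channel probe sets, 28 lay above it (20.7%), against 60% of all non-control probe sets by construction. These 28 belonged to 24 genes. The other 107 probe sets, with mean signals from 2.73 to 104.0, were tested only in a fit without a background filter. The share above background was 5 of 6 for the Clic proteins, 5 of 9 for the ClC family, 5 of 12 for sodium channels and 13 of 108 for potassium channels. Within the potassium channels it was 4 of 41 for voltage-gated pore subunits, 2 of 17 for their auxiliary subunits, 4 of 26 for inward rectifiers, 1 of 15 for leak channels and 2 of 9 for calcium- and sodium-activated channels. The nearest probe sets under the level were those of Kcnn3 (mean 104.0), Kcnk2 (102.9) and Kcnq1 (102.6), and the nearest above it were those of Kcne3 (108.8), Kcnj3 (109.9) and Kcnk6 (116.6).

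**Figure D1:**
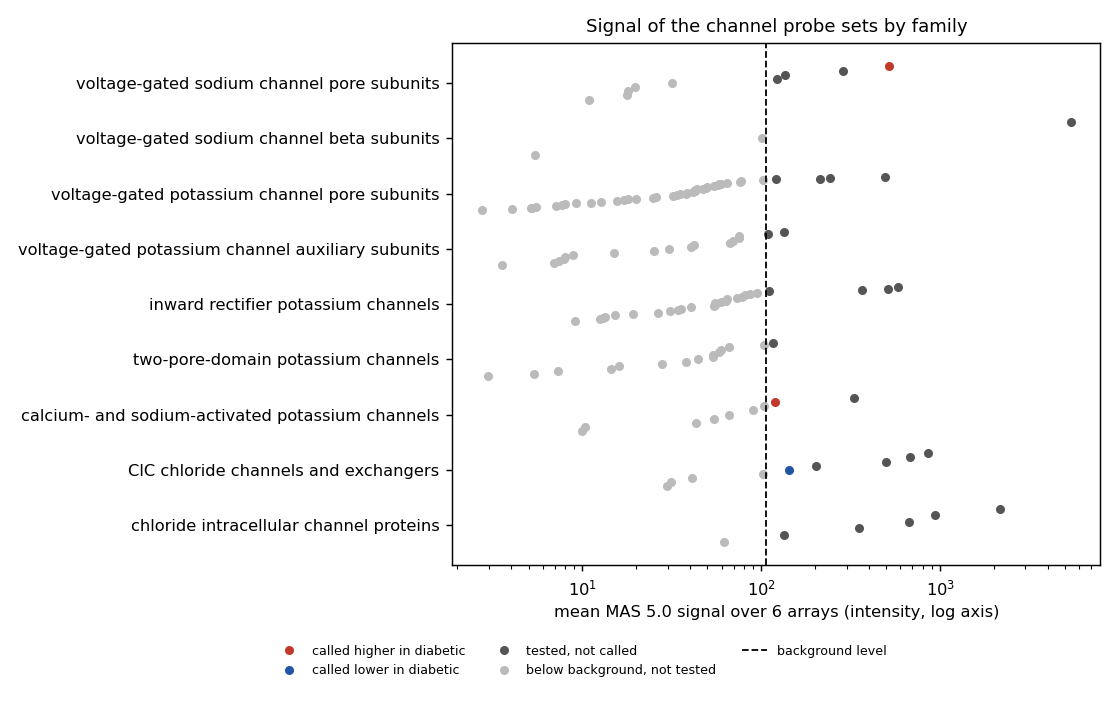
Mean MAS 5.0 signal over the 6 arrays, on a log axis, of each of 135 channel probe sets, in 1 row per family; each point is 1 probe set, its height within a row only spreads the points, and the dashed line is the background level of 105.8. Most potassium channel probe sets lie to the left of the line, and the 3 probe sets called are coloured.

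The probe sets of the main sodium and chloride channels of skeletal muscle were among the dim ones, and their signals are listed, as for every gene, in the order of rats 1 to 3 of each group. Scn4a, the pore subunit of the muscle sodium channel, had signals of 33.2, 31.3 and 75.5 in normal and 12.3, 12.1 and 24.5 in diabetic diaphragm. Clcn1, the muscle chloride channel, had signals of 95.9, 95.5 and 120.8 in normal and 110.3, 98.4 and 91.4 in diabetic diaphragm. The groups did not overlap for Scn4a and overlapped for Clcn1, but neither probe set was tested with the background filter. In a limma fit without it the log2 fold change was -1.48 ± 0.55 SE for Scn4a (adjusted p = 0.21). For Clcn1 it was -0.052 ± 0.27 SE (adjusted p = 0.95). A dim probe set does not show that a gene is silent. Kcnj2 and Kcnj12, inward rectifiers that hold the resting potential near that of potassium, were also under the level, with group means of 64.7 and 64.5 for Kcnj2 and of 78.4 and 93.5 for Kcnj12 in normal and diabetic muscle. The tissue itself was skeletal muscle by its markers: all 14 genes of a muscle list were above background, with a summed signal of 255324 to 292514 on normal and 199134 to 277418 on diabetic arrays.

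Among the 28 probe sets above background, 2 were higher and 1 was lower in diabetic compared with normal diaphragm at an adjusted p under 0.05 by limma's moderated test, with Benjamini-Hochberg adjustment over all 9519 probe sets tested. Over all tested probe sets 6.78% were called, 3.3% higher and 3.48% lower. Kcnmb4 and Scn7a rose, and Clcn4 fell. Of these, Kcnmb4 passed the filter only through its diabetic signals and Clcn4 only through its normal signals, the mean of the other group being under the background level, so that the count of calls is no support for a change of the channels as a group. With the filter at the 60th percentile 15 channel probe sets were tested, without these genes, and Scn7a alone was called. The log2 fold change was above 0 for 13 and below 0 for 15 of the 28, with a median of -0.015, beside 4795 and 4724 of all tested probe sets and a median of 0.0034. In 6 channel probe sets (21.4%) the groups did not overlap, against 29.6% of all tested probe sets. The median absolute log2 fold change was 0.22 for channels and 0.25 for all tested probe sets. The 95% interval of the log2 fold change lay within a 2-fold change in both directions for 23 of the 28 (82.1%), against 79.4% of all tested probe sets. The exceptions were Kcnmb4, Clcn4, Kcne3, Clic3 and the dimmer tested probe set of Clic4. Each call lay near the threshold. Without a filter on low signals none of the 135 probe sets passed limma's test, and 15 had an unadjusted p under 0.05. With the filter 5 of the 28 had such a p, against 23.9% of all tested probe sets. When single arrays were left out at most 1 channel probe set remained called.

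**Figure D2:**
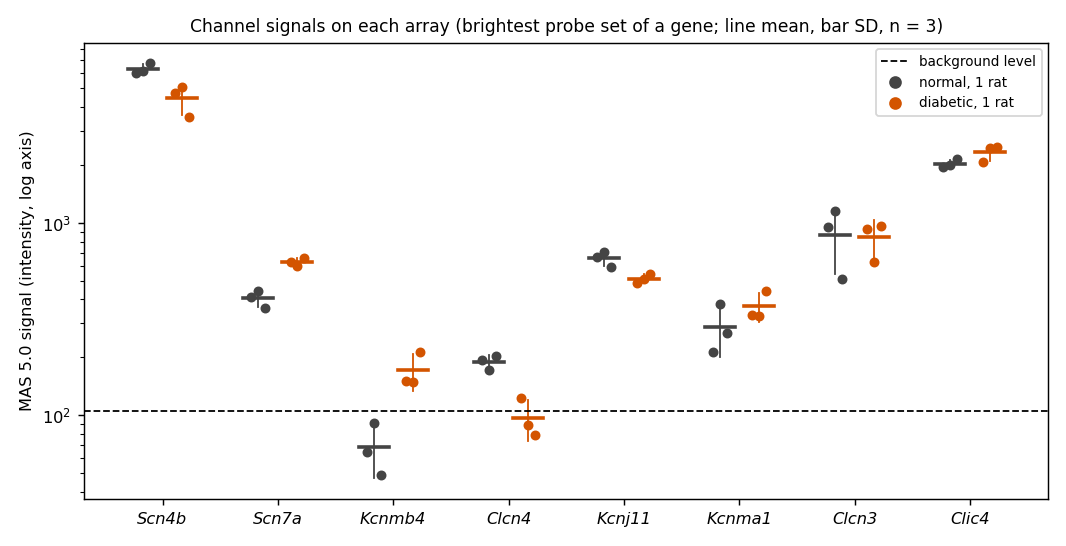
MAS 5.0 signal, on a log axis, of 8 channel genes on each of the 6 arrays; each point is 1 rat, the horizontal line is the mean and the vertical bar the SD of 3 rats, and the dashed line is the background level of 105.8. The groups do not overlap for Scn4b, Scn7a, Kcnmb4, Clcn4 and Kcnj11, and overlap for Kcnma1, Clcn3 and Clic4.

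Sodium channel genes gave 1 call among 5 tested. Scn7a, expressed in glia, neurons and other cells and thought to sense extracellular sodium, had signals of 411.6, 445.1 and 362.6 in normal and 628.7, 597.8 and 659.1 in diabetic diaphragm. Every diabetic muscle lay above every normal one, and the spread within groups was small, at 406 ± 41.5 in normal and 629 ± 30.7 in diabetic muscle (mean ± SD of 3 rats each). The 1.55-fold rise passed the test (limma log2 fold change 0.63 ± 0.16 SE, adjusted p = 0.040). It passed in 0 of 6 fits that each dropped 1 array, where the log2 fold change ranged from 0.55 to 0.70 and the adjusted p from 0.057 to 0.11. After scaling of the arrays to the same median the adjusted p was 0.053, and without a trend in the variance prior it was 0.058.

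In whole muscle, a change in the number of cells of a type and a change in RNA per cell cannot be told apart. Markers of glia, neurons and fibroblasts are therefore set beside Scn7a. Of 9 Schwann cell markers on the array 5 were above background and none passed limma's test. Of the 5, 1 had an unadjusted p under 0.05, beside 23.9% of all tested probe sets. The list's summed signal was 3799 to 4803 on normal and 3948 to 4803 on diabetic arrays. Most of that sum was Pmp22, with means of 2678.5 in normal and 2948.5 in diabetic muscle. The median log2 fold change of the 5 was 0.15, with Mbp at 0.30, Prx at 0.20, Pmp22 at 0.15, Cnp at -0.29 and S100b at -0.83, the last with an adjusted p = 0.077 in limma. The defining genes Sox10, Mag, Gfap and Ngfr were under the background level, and Sox10 had overlapping signals with means of 31.8 in normal and 61.0 in diabetic muscle. Of 9 neuron markers, Syn1 alone was above background, and the list's summed signal was 369 to 577 on normal and 391 to 438 on diabetic arrays. Of 6 tested fibroblast markers 4 were lower, namely the matrix genes Lum, Col1a1, Col1a2 and Col3a1, and none was higher. Pdgfra and Dcn did not pass, with log2 fold changes of -0.34 and -0.11 (limma adjusted p = 0.33 and 0.68). The list's summed signal was 43305 to 47430 on normal and 21991 to 23145 on diabetic arrays. The part of these cell types in the Scn7a result was not tested.

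Scn4b, a beta subunit that binds the pore subunit covalently and can provide the blocking particle of resurgent current, had signals of 6043, 6171 and 6741 in normal and 4720, 5100 and 3557 in diabetic diaphragm. Every diabetic muscle lay below every normal one, and diabetic replicate 3 was the lowest. The levels were 6319 ± 372 in normal and 4459 ± 804 in diabetic muscle (mean ± SD of 3 rats each), 1.42-fold lower, and the difference missed the threshold (limma log2 fold change -0.52 ± 0.16 SE with a 95% interval of -0.88 to -0.16, adjusted p = 0.086). Without diabetic replicate 3 the log2 fold change was -0.36 and the adjusted p 0.20. Its probe set had the highest mean signal of all channel probe sets, which does not rank its level against other genes. Of the other beta subunits, Scn2b and Scn3b were under the background level.

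The remaining sodium channel pore subunits above background are best known from neurons. Scn3a, a channel of the developing nervous system, had signals of 112.1, 134.3 and 98.1 in normal and 137.9, 162.3 and 165.6 in diabetic diaphragm. Every diabetic value was above every normal one, but the difference did not pass (limma log2 fold change 0.44 ± 0.24 SE, adjusted p = 0.28). Scn1a, the channel altered in a severe childhood epilepsy, varied among normal muscles, at 167.5, 245.2 and 404.1, and lay at 341.3, 303.3 and 264.4 in diabetic muscle. These groups overlapped, and the log2 fold change of Scn1a changed sign, to -0.063, without normal replicate 1. Scn10a, a channel of sensory neurons, had a log2 fold change of 0.20 ± 0.27 SE in limma, with adjusted p = 0.71. The median log2 fold change of the 5 tested sodium channel probe sets was 0.24, with values of 0.20 to 0.63 in the 4 pore subunits and -0.52 in the beta subunit. That median was 0.11 without normal replicate 1, 0.37 without normal replicate 3 and 0.42 with array weights.

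**Figure D3:**
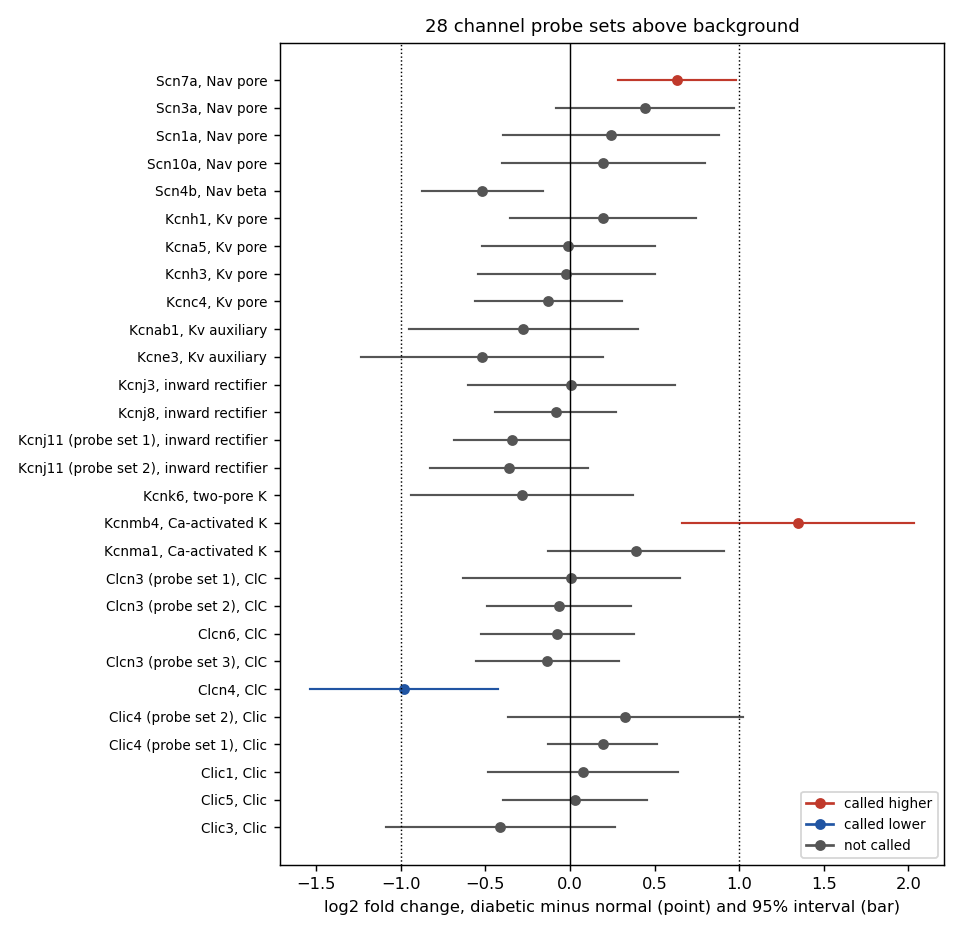
Log2 fold change, diabetic minus normal, of the 28 channel probe sets above background, ordered by family; points are limma estimates, bars are 95% intervals, and dotted lines mark a 2-fold change in either direction. Probe sets of 1 gene are numbered from the brightest. Kcnmb4 at 1.35, Scn7a at 0.63 and Clcn4 at -0.98 are the 3 called.

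Potassium channel genes gave 1 call among 13 tested probe sets. Kcnmb4 encodes a beta subunit, most abundant in brain, that slows the opening of the large-conductance calcium-activated potassium channel. It had signals of 64.8, 91.1 and 49.1 in normal and 151.5, 148.1 and 213.2 in diabetic diaphragm. All normal values were under the background level and all diabetic values above it, so that the probe set entered the test only through its diabetic signals and the size of the rise is imprecise. The deposited signals were 68.3 ± 21.2 in normal and 171 ± 36.6 in diabetic muscle (mean ± SD of 3 rats each), a ratio of 2.50 (limma log2 fold change 1.35 ± 0.31 SE, adjusted p = 0.029), and without the filter the call was lost, with adjusted p = 0.062. In fits that each dropped 1 array it passed in 1 of 6, the one without normal replicate 2, and the fold was lowest, at 2.19, without diabetic replicate 3 or normal replicate 3, and highest, at 3.00, without normal replicate 2.

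The other genes of this channel did not pass. Kcnma1, its pore subunit, had signals of 212.2, 380.5 and 268.9 in normal and 333.9, 329.8 and 443.5 in diabetic diaphragm. The groups overlapped, with normal replicate 2 among the diabetic values, and the log2 fold change was 0.39 ± 0.23 SE in limma, with adjusted p = 0.34. Both further probe sets of Kcnma1 were under the background level, and in normal and diabetic muscle one had group means of 87.4 and 91.7, with overlap, and the other of 17.7 and 3.03, without. Kcnmb1, the beta subunit of smooth muscle, was also under it, at 76.2 ± 14.1 in normal and 56.5 ± 18.6 in diabetic muscle (mean ± SD of 3 rats each). Beside these genes, 2 of 8 tested smooth muscle markers, Acta2 and Smtn, were lower and none was higher. The list's summed signal was 12354 to 18059 on normal and 12440 to 15281 on diabetic arrays. Most of that sum was Des, with means of 10694 in normal and 10059 in diabetic muscle, so that it mainly follows 1 gene. The log2 fold changes of the 8 were all below 0, from -1.09 to -0.036, with a median of -0.37. The part of smooth muscle in the values of Kcnma1 and Kcnmb1 was not tested. Kcnn3, a small-conductance calcium-activated channel of uninnervated muscle, was just under the background level, with signals of 148.5, 55.9 and 139.7 in normal and 70.7, 120.6 and 88.3 in diabetic muscle. Those groups overlapped, and normal replicate 2 was the lowest of the 6.

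None of the 4 probe sets of inward rectifiers above background passed limma's test. An unadjusted p under 0.05 was found for 1, beside 23.9% of all tested probe sets. Kcnj11 encodes Kir6.2, the pore of the ATP-sensitive potassium channel, which links the energy state of the muscle fibre to its excitability. Its brightest probe set, of a type that can match more than 1 transcript, had signals of 668.0, 703.5 and 588.0 in normal and 485.5, 513.4 and 540.4 in diabetic diaphragm. Every diabetic value was below every normal one, and the difference did not pass (limma log2 fold change -0.35 ± 0.15 SE with a 95% interval of -0.69 to -0.0034, adjusted p = 0.20). The second had signals of 448.4, 528.5 and 771.4 in normal and 463.7, 470.3 and 397.2 in diabetic muscle. Its log2 fold change was of nearly the same size, at -0.36, but the groups overlapped. The third was under the background level, with group means of 91.6 and 98.8. Abcc9, the sulfonylurea receptor that pairs with Kir6.2 in muscle and with Kir6.1 in vessels, had signals of 1777, 1891 and 1946 in normal and 1387, 1488 and 1061 in diabetic muscle. These groups did not overlap, and the difference missed the threshold (limma log2 fold change -0.53 ± 0.17 SE, adjusted p = 0.087). Kcnj8, which encodes Kir6.1 and is best known from smooth muscle and pericytes, was at 375 ± 32.7 in normal and 353 ± 17.1 in diabetic muscle (mean ± SD of 3 rats each), with a 95% interval of the log2 fold change of -0.44 to 0.27. Kcnj3, a G-protein-gated channel known from heart and brain, had group means of 109.6 and 110.2.

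Voltage-gated potassium channel subunits above background numbered 6, none of which passed or had an unadjusted p under 0.05. Kcnc4, a voltage-gated pore subunit found in skeletal muscle, had signals of 483.8, 494.2 and 553.7 in normal and 594.6, 464.9 and 366.6 in diabetic diaphragm. The diabetic values lay on both sides of the normal ones, and the log2 fold change was -0.13 ± 0.20 SE in limma, with a 95% interval of -0.56 to 0.31 and an adjusted p = 0.74. Kcna5, a delayed rectifier of heart and vessels, had nearly equal means, at 214 ± 39.7 and 213 ± 45.4 (mean ± SD of 3 rats each). Kcnh1 and Kcnh3, channels best known from brain, had log2 fold changes of 0.19 and -0.021. Kcne3, a small auxiliary subunit altered in some reports of periodic paralysis, had signals of 125.4, 94.1 and 164.8 in normal and 64.9, 87.6 and 116.0 in diabetic diaphragm, which overlapped (limma log2 fold change -0.52 ± 0.32 SE, adjusted p = 0.36). Kcnab1, a cytosolic beta subunit, had a log2 fold change of -0.28. Among the leak channels, Kcnk6 alone was above background, at 128 ± 32.2 in normal and 105 ± 25.9 in diabetic muscle (mean ± SD of 3 rats each). Over the 13 tested potassium channel probe sets the median log2 fold change was -0.084, and it was -0.14 without normal replicate 1, -0.13 without normal replicate 2, -0.053 without normal replicate 3 and -0.048 with array weights.

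Of the potassium channels just under the background level, Kcnq1, a slowly activating channel best known from heart and epithelia, had signals of 49.2, 72.3 and 101.6 in normal and 122.4, 124.4 and 145.5 in diabetic diaphragm. Every diabetic value was above every normal one. In a fit without the filter its log2 fold change was 0.87 ± 0.33 SE in limma, with adjusted p = 0.22.

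ClC genes gave 1 call among 5 tested probe sets. Clcn4 encodes ClC-4, a chloride-proton exchanger of endosomes. It had signals of 193.5, 171.1 and 203.0 in normal and 123.5, 89.5 and 78.8 in diabetic diaphragm. Every diabetic muscle lay below every normal one. The diabetic mean was under the background level, so that the probe set entered the test only through its normal signals and the size of the fall is imprecise. The deposited signals were 189 ± 16.4 in normal and 97.3 ± 23.3 in diabetic muscle (mean ± SD of 3 rats each), 1.95-fold lower (limma log2 fold change -0.98 ± 0.25 SE, adjusted p = 0.043), and without the filter the call was lost at an adjusted p = 0.087. In fits that each dropped 1 array it passed in 1 of 6, the one without diabetic replicate 1, and the highest adjusted p was 0.12, without normal replicate 1.

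The other ClC genes did not pass. Clcn3, a related endosomal exchanger, was measured by 3 probe sets above background. The brightest had signals of 948.3, 1147 and 510.0 in normal and 932.9, 624.8 and 966.8 in diabetic diaphragm. Normal replicate 3 and diabetic replicate 2 were the low arrays of their groups on all 3 probe sets. The log2 fold changes were 0.0076, -0.066 and -0.14 from the brightest to the dimmest, with 95% intervals of -0.63 to 0.65, -0.49 to 0.36 and -0.56 to 0.29. Clcn6, an exchanger of late endosomes, had means of 207 ± 10.04 and 199 ± 36.1 (mean ± SD of 3 rats each). Of the dim members Clcn2, Clcn5 and Clcn7, none was tested with the background filter or passed without it. The median log2 fold change of the ClC probe sets was -0.074, and it ranged from -0.25, without normal replicate 3, to 0.0030, without normal replicate 1, when single arrays were left out. Each of these shifts was under the SD of that median between replicates, 0.21, and the median was -0.18 with array weights.

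The Clic family gave no call among 5 tested probe sets in limma, and 0 had an unadjusted p under 0.05. Clic4, a protein of the cytosol, membranes and nucleus, had signals of 1951, 1993 and 2137 in normal and 2061, 2439 and 2467 in diabetic diaphragm on its brightest probe set. The groups overlapped through diabetic replicate 1, and the log2 fold change was 0.19 ± 0.14 SE in limma, with a 95% interval of -0.13 to 0.51 and an adjusted p = 0.46. Clic1 varied more among diabetic muscles, at 1079, 1281 and 598.4, than among normal ones, at 834.5, 860.6 and 982.0, and its diabetic replicate 3 was the lowest of the 6 arrays. Without that array the log2 fold change of Clic1 went from 0.077 to 0.40, with adjusted p = 0.25 in limma. Clic5, which associates with the actin cytoskeleton, had means of 343 ± 9.91 and 356 ± 83.5 (mean ± SD of 3 rats each), and Clic3 had a log2 fold change of -0.41 ± 0.31 SE. Of the 5 tested Clic probe sets 4 had a log2 fold change above 0, and the median was 0.077. It was 0.030 without normal replicate 1, 0.038 without diabetic replicate 2, 0.15 without normal replicate 3 or diabetic replicate 3, and 0.20 with array weights.

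**Figure D4:**
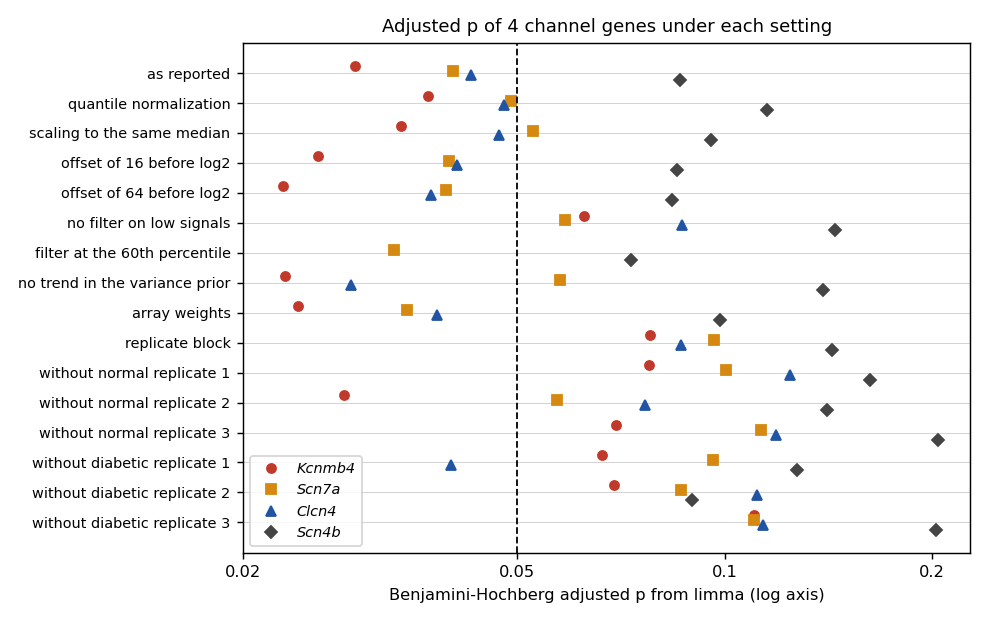
Benjamini-Hochberg adjusted p from limma, on a log axis, of Kcnmb4, Scn7a, Clcn4 and Scn4b as reported and under each other setting of the analysis; the dashed line is the threshold of 0.05. Points of Kcnmb4, Scn7a and Clcn4 fall on both sides of the line and those of Scn4b lie to its right; Kcnmb4 and Clcn4 have no point with the filter at the 60th percentile, which leaves them out.

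Other genes that set the excitability of the muscle membrane were taken as lists. Of 13 tested partners and regulators of the channels, 1 was lower, none was higher and 12 did not pass, with a median log2 fold change of -0.0062. Ank2, which encodes an ankyrin that anchors channels and pumps to the membrane skeleton, fell from 667 ± 31.3 to 411 ± 74.5 (mean ± SD of 3 rats each), a fall that passed limma's test (log2 fold change -0.71 ± 0.17 SE, adjusted p = 0.039). Nedd4l, a ubiquitin ligase that removes sodium channels from the membrane, had signals of 315.7, 385.2 and 201.0 in normal and 585.7, 548.8 and 449.7 in diabetic muscle. Those groups did not overlap, and the difference missed the threshold (limma log2 fold change 0.85 ± 0.24 SE, adjusted p = 0.060).

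Of 7 tested calcium channel and junctional genes, 1 was lower and none was higher. Jph2, a junctophilin that ties the surface membrane to the sarcoplasmic reticulum, fell from 2395 ± 993 to 965 ± 126 (mean ± SD of 3 rats each), a fall that passed limma's test (log2 fold change -1.24 ± 0.26 SE, adjusted p = 0.019). Cacna1s, the voltage sensor of excitation-contraction coupling, and Ryr1, the calcium release channel, had log2 fold changes of -0.14 and -0.053. Of 13 tested genes of other channels and cotransporters, 1 was lower and none was higher. That gene was Ano5, an anoctamin of muscle linked to muscular dystrophy, which fell from 2495 ± 273 to 1564 ± 206 (mean ± SD of 3 rats each), a fall that passed limma's test (log2 fold change -0.68 ± 0.16 SE, adjusted p = 0.033). Of 4 tested sodium pump genes, 1 was lower. Atp1b1, a beta subunit of the pump, fell by 1.05 on the log2 scale (standard error 0.17, adjusted p = 0.0073 from limma), and its second probe set also fell, by 0.69 (adjusted p = 0.042). The 4 lists thus held 4 lower and no higher genes among 37 tested, beside 251 lower and 245 higher among 7080 named genes. Atp1b1 passed in each of 6 fits that dropped 1 array. Jph2 lost its call without diabetic replicate 2 or 3, with a highest adjusted p of 0.065, Ank2 kept it only without diabetic replicate 1, and Ano5 lost it in all 6.

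**Figure D5:**
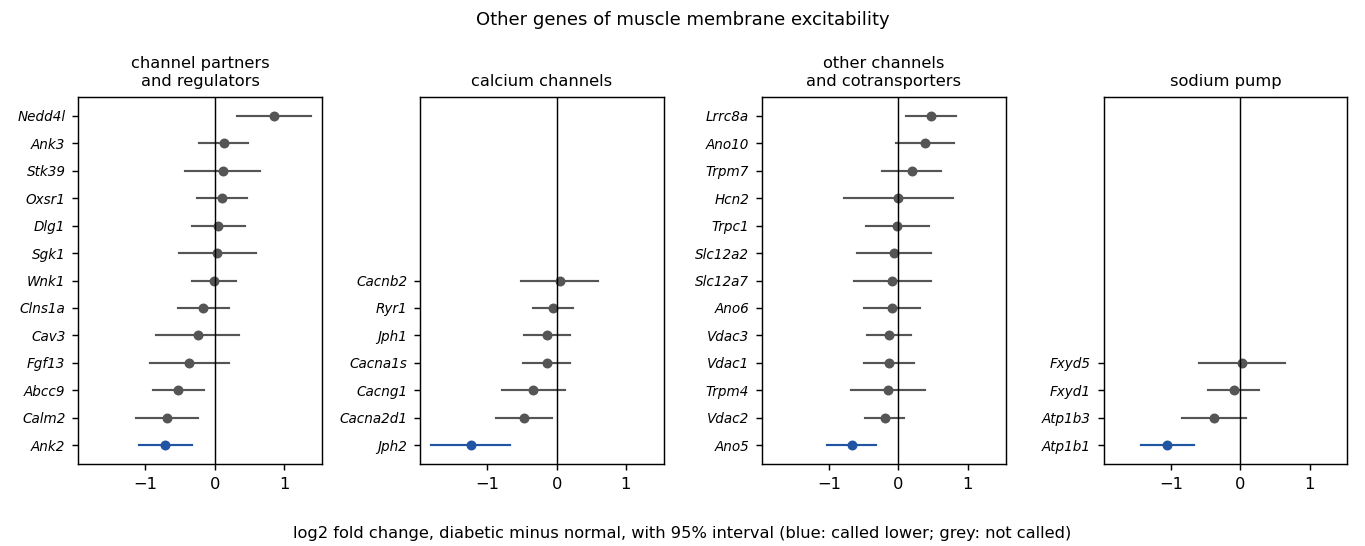
Log2 fold change, diabetic minus normal, of tested genes in 4 lists of membrane excitability outside the channel families; points are limma estimates for the brightest probe set of a gene and bars are 95% intervals. Ank2, Jph2, Ano5 and Atp1b1, in blue, are the genes called lower.

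Of 8 tested genes that respond to loss of the nerve, none passed limma's test and the median log2 fold change was 0.029. An unadjusted p under 0.05 was found for 2, Gadd45a and Myh3, beside 23.9% of all tested probe sets. The summed signal of the whole list was 3202 to 3473 on normal and 3804 to 4006 on diabetic arrays, without overlap. The acetylcholine receptor subunit gene Chrna1 had a log2 fold change of 0.11. Gadd45a and Chrnd were at 0.46 and 0.44, with every diabetic value above every normal one (limma adjusted p = 0.12 and 0.22). Chrne, Chrnb1, Myog and Hdac4 were below 0, from -0.37 to -0.051, with overlapping groups. Chrng and Myh8 were under the background level, with means of 15.0 and 36.6 in normal and 10.3 and 74.6 in diabetic muscle. Myh3, the embryonic myosin heavy chain, had signals of 93.4, 72.3 and 9.90 in normal and 99.3, 342.3 and 412.1 in diabetic muscle. Every diabetic value was above every normal one, with a wide spread in both groups, and the difference missed the threshold (limma log2 fold change 2.57 ± 0.79 SE, adjusted p = 0.081). All normal values and that of diabetic replicate 1 were under the background level. The probe set of Myh3 thus entered the test only through its diabetic signals, and the size of the rise is imprecise. Of the 14 muscle markers 4 were lower, namely Myh4, Casq1, Myoz1 and Mb, and none was higher. Of 8 tested endothelial markers Kdr was higher and Tie1 lower, and none of 7 leukocyte, 2 adipocyte and 4 mesothelial markers passed or had an unadjusted p under 0.05. Of the liver and pancreas markers Cpa1 alone was above background, and it fell. Its diabetic signals, 103.4, 59.0 and 56.3, were all under the background level, so that it entered the test only through its normal signals. Of the marker genes called, Myh4, Lum, Col1a1, Col1a2, Col3a1 and Cpa1 passed whichever array was left out, and the others lost their call in at least 3 of 6 such fits. These fits kept the filter set on all 6 arrays, so that they do not test how Cpa1 entered.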

How the data were processed

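The authors deposited 1 value per probe set and rat, the MAS 5.0 signal of an Affymetrix rat expression array, which is a linear intensity. Detection calls were not used, and the scaling target is not given in the sources used here. Array medians were 167.6 to 180.8, and arrays of a group correlated at 0.954 to 0.973 over the tested probe sets. Signals under 1 were set to 1, log2 was taken and no further normalization was applied. The 57 control probe sets and those with a mean signal at or under the 40th percentile of the rest (105.8) were left out, and limma 3.58.1 in R 4.3.3 (lmFit, eBayes with a trend) was run on the 9519 left, in place of the authors' BAM software, which was not used here. With 6 arrays and 4 residual degrees of freedom, precision is limited by the number of animals. Intervals are 95% intervals of this fit, not adjusted for the number of genes.

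Linear folds compare the mean signals of the groups. Of the non-control probe sets, the platform annotation gave 12783 to 1 gene, 312 to several and 2771 to none. No gene was named from one with several, and all 135 channel probe sets kept their symbol in the current RefSeq gene table. In the lists a gene was represented by its brightest probe set. Members and lists were chosen with earlier results of these data known. Channel genes named are those called, up to 3 per family with the largest changes, those of known role in muscle, and those next to the background level. List genes named are up to 4 called per list. Abcc9, Nedd4l, Cacna1s, Ryr1, Chrna1, Chrnb1, Chrnd, Chrne, Chrng, Myog, Hdac4, Gadd45a, Calm2, Myh3, Myh8, S100b, Mbp, Prx, Pmp22, Cnp, Syn1, Sox10, Mag, Gfap, Ngfr, Des, Pdgfra, Dcn, Kcnmb1, Clcn2, Clcn5, Clcn7, Scn2b, Scn3b and Scn10a fall outside that rule and were named after their values were seen. The procedure was run on simulated data with changes of 2-fold or more planted in probe sets already above the filter. That run does not cover smaller changes or probe sets that enter the test through 1 group only. Alternatives were another normalization, offset, filter, variance prior, weighting or threshold, the rat number as a block, and each array left out.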

Additional observations from a re-analysis of the deposited data

How the results depend on the processing

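Of the channel probe sets, 2 higher and 1 lower were called. The counts were 1 and 1 after scaling to the same median or without a trend in the variance prior, 1 and 0 with the filter at the 60th percentile, where Kcnmb4 and Clcn4 were no longer tested, and 0 and 0 without a filter, where more probe sets shared the adjustment. With the replicate block, the rat numbers as a block, they were 0 and 0. The numbers name separate animals (correlations of same-numbered deviations 0.098, -0.20 and -0.068) and do not pair the samples, so the block is an alternative only. At an adjusted p under 0.1 they were 2 and 2, the added gene being Scn4b. With each array left out in turn each count was 0 to 1. Quantile normalization, offsets of 16 or 64 and array weights gave the same 3 genes. Over all probe sets, 314 were higher and 331 lower, with 200 higher without a filter, 162 higher and 170 lower with the replicate block, 562 and 585 at an adjusted p under 0.1, and 133 to 226 higher and 179 to 235 lower with an array left out. The median of the sodium channels, 0.24, was 0.42 with array weights and 0.11 to 0.37 with an array left out. No call of a single channel gene reversed. At the same threshold, 24 pairs of a channel probe set and a setting lost a call, none gained one and 383 stayed on their side of the threshold. The 4 lower and 0 higher genes of the excitability lists, examined in this way after the data were seen, were 2 lower without the trend, 1 lower with the replicate block, 4 lower and 1 higher (Nedd4l) with array weights, 6 lower (Abcc9 and Calm2 added) and 1 higher (Nedd4l) at an adjusted p under 0.1, and 1 to 3 lower and 0 to 1 higher with an array left out. The cause was not tested where none is given. Signal near background limits Kcnmb4, Clcn4 and most potassium channels.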
